A study of Mus musculus with 20 samples.

Results

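A list of 9 genes known to mark the lipid-associated macrophages of obese fat was followed across the whole epididymal fat pads of 20 male mice. The genes were Gpnmb, Cd9, Fabp5, Mmp12, Dcstamp, Acp5, Itgax, Plin2 and Lgals3. They were found by symbol among the 19505 genes with a symbol on the array, and each of the 9 was read by 1 probe set. The list was chosen with earlier results of these data known. Between genotypes none of the 9 differed beyond the spread between mice. Between mice of the same genotype and batch their SD ran from 0.39 (Fabp5) to 1.24 (Itgax) log2 units. With the macrophage gene Adgre1 7 of the 9 rose past adjustment, against 6.26% of all probe sets. The members' count was 2 without the 2 mice lowest in Adgre1, where 684 probe sets passed in either direction in place of 1959. It was 1 in wt mice alone, against 0.536% of all probe sets, and 0 in batch 2 alone, against 0%. Acp5 rose with the adipocyte gene Adipoq, and Fabp5 followed neither past adjustment.

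Lipid-associated macrophages gather around dying adipocytes in obese fat, in mice and in humans, and form the rings of cells called crown-like structures. They take up lipid through scavenger receptors, store it in droplets, break it down in a large lysosomal system and depend on the lipid receptor Trem2. Several of their markers are shared with osteoclasts and with multinucleated giant cells, and some, such as Plin2, Fabp5 and Lgals3, are made by other cell types as well. TNF-α is an inflammatory cytokine that macrophages of obese fat are known to release.

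The study compared 10 mice called cre (genotype TNF-α Flox/Flox, LyzMcre+/-) with 10 littermates called wt (TNF-α Flox/Flox, LyzMcre-/-), all on the C57BL/6 background. Both groups carried the floxed Tnf gene, so that wt mice were floxed animals without Cre and not mice with an unmodified gene. LyzM-Cre is expressed from the lysozyme gene Lyz2 and acts in macrophages, monocytes and neutrophils, so deletion was not directed to lipid-associated macrophages alone. A chow diet was given up to 10 weeks of age. An 18 week period on a purified high-fat diet (40% of calories from fat) followed, and the fat was taken at 28 weeks in all 20 mice. Each of the 2 batches named in the sample titles held 5 cre and 5 wt mice. What a batch was is not stated there.

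Log2 signals were available for 22206 probe sets on 20 arrays, 1 per mouse, with array medians of 6.49 to 6.58. All 20 arrays held different values, and 10 mice a genotype set how precisely a value is known. Tnf was measured at 3.91 to 5.34 in cre fat, against 5.78 to 7.80 in wt fat, without overlap. The fat label was borne out by Adipoq, the adipocyte hormone adiponectin, at 18.63 to 19.57 in cre fat and 17.38 to 19.29 in wt fat. Genes of other organs were also read in the pads, and the source of their signal was not tested. The mean over 7 seminal vesicle genes was at most 6.89 in cre fat, against 16.8 in wt replicate 6 and at most 5.66 in the remaining wt pads. The mean over 8 exocrine pancreas genes was at most 5.68 in cre fat, against 7.57 in wt replicate 4 and at most 5.82 in the remaining wt pads. The mean over 10 liver genes ran from 7.24 to 12.4 in cre fat, against 14.3 in wt replicate 4 and at most 11.5 in the remaining wt pads. Members' values without cre replicate 3 (the cre mouse highest in seminal vesicle genes) and wt replicates 4 and 6 are given with the genotype comparison. In whole tissue, fewer cells of a type and less RNA per cell cannot be told apart.

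Promoter sequence is shown for the 3 members in which a searched motif was found, since several of these genes are known targets of the MITF-TFE family, the transcription factors of lysosome and osteoclast genes, or of AP-1, a factor of activated macrophages. The windows hold 250 bases before an annotated start, from RefSeq on the GRCm38.p6 build, read 5′ to 3′ on the strand of the gene. Capitals mark the motif matches. For Mmp12 and Acp5 the start lies inside the gene and not at its outer end. The Itgax window also ends inside its gene, whose outer end is at 128129526. The Mmp12 window is chr9:7347124-7347373 on the plus strand, the Acp5 window chr9:22130599-22130848 on the minus strand and the Itgax window chr7:128129300-128129549 on the plus strand.
Mmp12: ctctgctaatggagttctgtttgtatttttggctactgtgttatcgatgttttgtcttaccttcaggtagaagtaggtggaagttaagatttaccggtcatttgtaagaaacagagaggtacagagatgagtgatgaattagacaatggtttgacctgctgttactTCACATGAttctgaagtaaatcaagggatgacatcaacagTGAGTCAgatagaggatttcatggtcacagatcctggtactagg
Acp5: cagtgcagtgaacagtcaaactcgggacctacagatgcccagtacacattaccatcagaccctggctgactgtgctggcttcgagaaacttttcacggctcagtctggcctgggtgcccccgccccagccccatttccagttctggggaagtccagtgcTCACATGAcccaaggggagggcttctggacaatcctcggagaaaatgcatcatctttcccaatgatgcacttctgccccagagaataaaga
Itgax: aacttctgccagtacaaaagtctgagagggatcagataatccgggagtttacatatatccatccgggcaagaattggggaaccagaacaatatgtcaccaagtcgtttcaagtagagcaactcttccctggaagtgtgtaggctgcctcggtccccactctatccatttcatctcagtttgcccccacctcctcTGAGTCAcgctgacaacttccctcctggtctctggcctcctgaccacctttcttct
The windows were searched for 3 motifs on both strands. The M-box TCATGTGA, a site of MITF-TFE factors, lay 84 bases before this inner start in Mmp12 and 91 bases before it in Acp5, in both on the opposite strand, and 0.846% of 32851 windows of all genes held it. The E-box CACGTG was found in 0 of the members' windows and in 6.02% of all windows. The AP-1 motif TGANTCA lay 44 bases before the inner start in Mmp12 and 56 bases before the start in Itgax, and 6.75% of all windows held it. The search covered 10 windows of 7 members (all but Fabp5 and Dcstamp). Of 2 Mmp12 windows 1 held no motif and of 3 Acp5 windows 2 held none, among them for both genes the window at the outer end of the gene. No match overlapped another motif, and a match is a run of letters and not a measured binding site.

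Gpnmb encodes a transmembrane glycoprotein of endosomes and lysosomes that is a leading marker of lipid-loaded macrophages (probe set TC0600000577.mm.2, chromosome 6, 49036518 to 49058182, mm10). In cre fat its log2 signal ran from 13.18 over a median of 16.76 to 17.61, with a mean of 16.25 ± 1.37 (SD, n = 10). In wt fat it ran from 15.36 over 16.98 to 18.12, with a mean of 16.92 ± 0.75 (SD, n = 10). Cre replicates 7 and 9 lay below every other mouse, and the groups overlapped otherwise. The difference, cre minus wt, was −0.67 (SE 0.45, 95% interval −1.60 to 0.26, limma adjusted p = 0.829). Without cre replicate 9 it was −0.33, and without cre replicates 7 and 9 it was −0.03. In batch 1 cre fat averaged 15.80 ± 1.89 and wt fat 17.02 ± 1.04, and in batch 2 cre fat averaged 16.69 ± 0.42 and wt fat 16.82 ± 0.39 (SD, n = 5 each). The lowest and the highest of the 20 mice were 30.6-fold apart, the widest range of the 9 members.

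Lgals3 encodes galectin-3, a sugar-binding lectin of macrophages also known as Mac-2 (TC1400000513.mm.2, chromosome 14, 47373860 to 47386167). Its signal was 11.78 at the lowest, 14.36 at the median and 15.82 at the highest in cre fat, with a mean of 14.31 ± 1.32 (SD, n = 10). In wt fat these values were 13.15, 15.32 and 15.997, with a mean of 15.04 ± 0.87 (SD, n = 10). The groups overlapped, with 7 of the 10 cre values under the average of wt. The difference of −0.74 (SE 0.46, interval −1.68 to 0.21, limma adjusted p = 0.821) was the largest of the members in size, and it was −0.46 without cre replicate 9 and −0.18 without cre replicates 7 and 9. By batch it was −0.69 (SE 0.75) in batch 1 and −0.78 (SE 0.37) in batch 2.

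Cd9 encodes a tetraspanin, a membrane organiser found on several cell types and used with Trem2 to sort lipid-associated macrophages (TC0600003148.mm.2, chromosome 6, 125460266 to 125494760). In cre fat the signal lay between 11.72 and 13.77 around a median of 13.07, with a mean of 12.93 ± 0.79 (SD, n = 10). In wt fat it lay between 11.65 and 14.86 around a median of 13.27, with a mean of 13.26 ± 1.08 (SD, n = 10). The 3 highest mice were wt, and the rest were mixed. The difference was −0.33 (SE 0.39, interval −1.13 to 0.48, limma adjusted p = 0.895). Without wt replicate 6, the mouse highest in seminal vesicle genes and in Cd9, it was −0.15. By batch it was −0.15 (SE 0.54) in batch 1 and −0.50 (SE 0.47) in batch 2.

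Plin2 and Fabp5 handle lipid inside the cell. Plin2 encodes the droplet coat protein perilipin 2 (TC0400002980.mm.2, chromosome 4, 86626910 to 86670217). Its signal ran from 15.20 over 16.41 to 16.87 in cre fat (mean 16.29 ± 0.56, SD, n = 10), against 16.01 over 16.62 to 17.10 in wt fat (mean 16.57 ± 0.32, SD, n = 10). The cre mice lowest in Gpnmb, replicates 7 and 9, were lowest here as well, and the remaining mice overlapped. The difference was −0.29 (SE 0.20, interval −0.70 to 0.13, limma adjusted p = 0.835), with −0.42 (SE 0.34) in batch 1 and −0.16 (SE 0.19) in batch 2.

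Fabp5 encodes a fatty acid carrier made by macrophages, adipocytes and endothelial cells (TC0300000060.mm.2, chromosome 3, 10012585 to 10016610). Its signal was 12.20 to 13.67 with a median of 12.81 in cre fat (mean 12.93 ± 0.42, SD, n = 10), against 12.41 to 13.40 with a median of 13.05 in wt fat (mean 12.92 ± 0.36, SD, n = 10). The values of the groups were interleaved, over the narrowest range of the members (2.77-fold). The difference was 0.01 (SE 0.18, interval −0.36 to 0.37, limma adjusted p = 0.997), with 0.26 (SE 0.24) in batch 1 and −0.25 (SE 0.25) in batch 2.

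Mmp12 encodes macrophage elastase, a secreted protease that breaks down elastin (TC0900000046.mm.2, chromosome 9, 7344397 to 7360461). Its signal ran from 16.44 over 18.28 to 18.91 in cre fat (mean 17.98 ± 0.88, SD, n = 10), against 16.19 over 18.20 to 19.20 in wt fat (mean 18.09 ± 0.90, SD, n = 10). The 3 lowest mice were 1 wt mouse and cre replicates 7 and 9, and the others were mixed. The difference was −0.11 (SE 0.37, interval −0.86 to 0.65, limma adjusted p = 0.969), with −0.14 (SE 0.60) in batch 1 and −0.07 (SE 0.33) in batch 2.

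Itgax encodes CD11c, an integrin chain that marks the inflammatory macrophages of obese fat and also dendritic cells (TC0700001876.mm.2, chromosome 7, 128129526 to 128150657). Its signal was 8.28 at the lowest, 11.13 at the median and 12.43 at the highest in cre fat, with a mean of 10.84 ± 1.31 (SD, n = 10). In wt fat it was 9.63, 10.86 and 13.05, with a mean of 11.25 ± 1.18 (SD, n = 10). The cre median was thus above the wt median while the cre mean was below the wt mean, since cre replicates 7 and 9, at 8.98 and 8.28, lay below all other mice. The difference was −0.41 (SE 0.50, interval −1.45 to 0.64, limma adjusted p = 0.900). It was −1.10 (SE 0.76) in batch 1, which held both of these mice, and 0.28 (SE 0.45) in batch 2.

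Dcstamp and Acp5 are best known from osteoclasts. Dcstamp encodes a membrane protein needed for the fusion of osteoclasts and giant cells (TC1500000308.mm.2, chromosome 15, 39745930 to 39760938). Its signals were close to the array medians and may hold background, which compresses differences: 6.11 over 7.42 to 8.23 in cre fat (mean 7.18 ± 0.75, SD, n = 10), against 5.98 over 7.39 to 8.81 in wt fat (mean 7.33 ± 1.00, SD, n = 10). The groups shared nearly their whole range. The difference was −0.15 (SE 0.36, interval −0.90 to 0.61, limma adjusted p = 0.955), with −0.01 (SE 0.52) in batch 1 and −0.29 (SE 0.43) in batch 2.

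Acp5 encodes tartrate-resistant acid phosphatase, the classical stain of osteoclasts, which activated macrophages make as well (TC0900001900.mm.2, chromosome 9, 22126727 to 22135746). Its signal ran from 14.24 over 15.15 to 15.67 in cre fat (mean 15.08 ± 0.51, SD, n = 10), against 13.62 over 15.19 to 15.85 in wt fat (mean 15.03 ± 0.68, SD, n = 10). The highest and the lowest value were both from wt mice. The difference was 0.05 (SE 0.25, interval −0.47 to 0.57, limma adjusted p = 0.978), with 0.04 (SE 0.32) in batch 1 and 0.06 (SE 0.36) in batch 2.

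**Figure D1:**
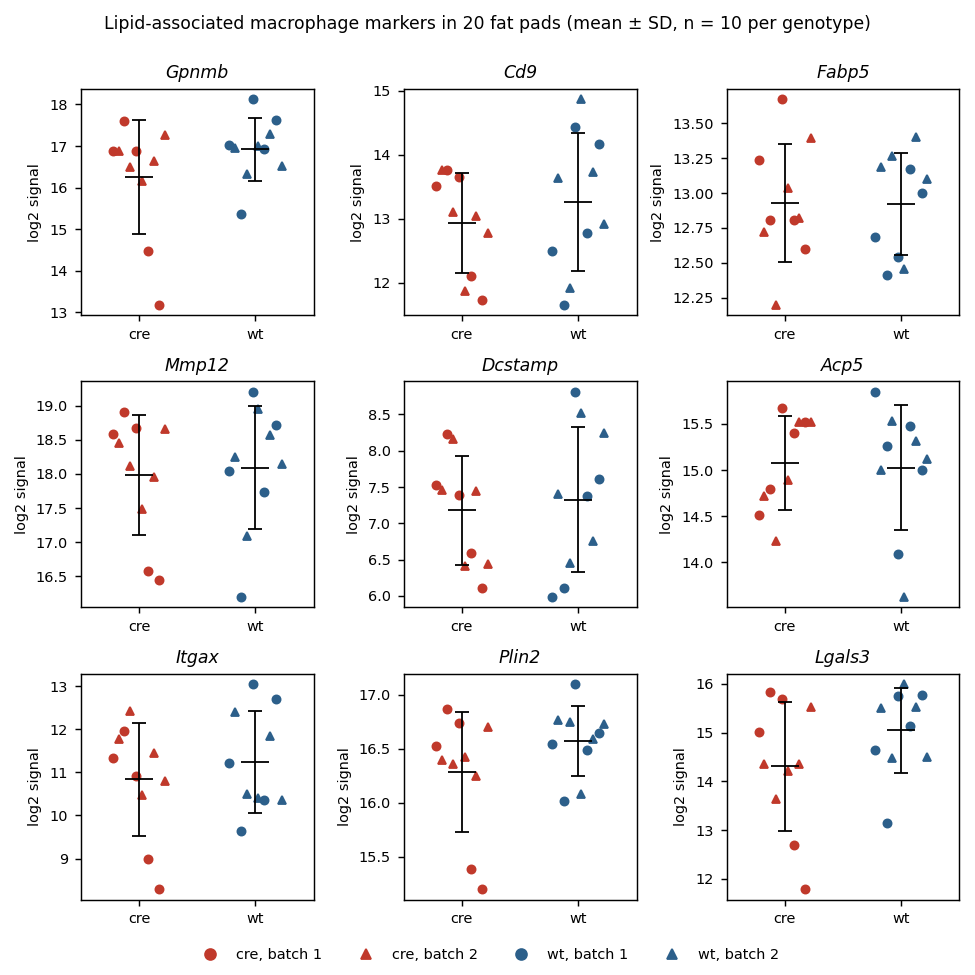
Log2 signal of each of the 9 genes in every mouse, cre on the left and wt on the right of each panel; circles are batch 1, triangles batch 2, and the black bars give the mean ± SD of 10 mice. The groups overlap in every panel, and 2 cre mice of batch 1 lie lowest for Gpnmb, Itgax, Plin2 and Lgals3.

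The comparison of cre with wt mice asks whether these markers of lipid-laden macrophages differ in obese fat when Tnf deletion is directed to myeloid cells. Of the 9 members 0 passed limma's adjusted p of 0.05, against 0.0045% of all probe sets, which is Tnf alone. At an unadjusted p under 0.05 there were 0 of 9 members and 6.29% of all probe sets. The estimate was below 0 for 7 of 9 members, against 49.3% of all probe sets, and the median over the members was −0.29, against 0.00 over all probe sets. Cre and wt values overlapped for all 9 members, as they did for all but 0.00901% of the probe sets. The sign was not stable for every member: without 1 mouse the Mmp12 value was 0.05 (without cre replicate 7), 0.06 (without cre replicate 9) or 0.04 (without wt replicate 5), and the Dcstamp value was 0.03 without wt replicate 5. The small values of Fabp5 and Acp5 also changed sign with the mouse left out, between −0.08 and 0.10 and between −0.10 and 0.14. Gpnmb, Lgals3, Cd9, Plin2 and Itgax kept values below 0 in each of the 20 fits without a single mouse, but their size depended on single mice. Without cre replicate 9 Itgax was at −0.13, Plin2 at −0.17 and Cd9 at −0.19, beside the Gpnmb and Lgals3 values above. Without cre replicates 7 and 9 together, Gpnmb was at −0.03, Plin2 at −0.02, Cd9 at −0.06, Lgals3 at −0.18, Itgax at 0.16, Mmp12 at 0.28 and Dcstamp at 0.06. Without cre replicate 3 and wt replicates 4 and 6 the values were larger in size, with −1.01 for Gpnmb, −0.94 for Lgals3, −0.89 for Itgax, −0.45 for Plin2, −0.43 for Cd9, −0.31 for Mmp12 and −0.28 for Dcstamp, and 0 members passed. The intervals reached as low as −1.68 for Lgals3 and as high as 0.65 for Mmp12, and differences inside them are not excluded by these mice. The test of whether the difference itself differed between batches (genotype by batch term) passed limma's adjustment for 0 of 9 members and 0% of all probe sets, and an unadjusted p under 0.05 was reached by 0 of 9 members and 7.41% of all.

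Marker genes of other cells were read beside the members. Of 17 measured macrophage identity genes 16 had an estimate below 0 and 0 passed adjustment (2 at an unadjusted p under 0.05: Fcer1g, the signalling chain of Fc receptors, with −1.25, and Tyrobp, the adaptor of Trem2, with −0.80). The mean over these 17 genes ran from 10.68 to 13.52 in cre fat and from 12.15 to 14.24 in wt fat. Of 14 mature adipocyte genes 14 had an estimate above 0 and 0 passed, with a mean over the list of 15.54 to 16.48 in cre fat and 13.99 to 16.38 in wt fat. Of 12 dendritic cell genes, which bear on Itgax, 6 were above and 6 below 0 and 0 passed, with list means of 6.58 to 6.96 in cre fat and 6.49 to 7.02 in wt fat. Of 10 liver genes 10 were above 0 (median 1.19, with Alb, the albumin gene, at 2.55 and an unadjusted p of 0.0418) and 0 passed. Of 7 mesothelium genes 7 were below 0 (median −0.47, with Msln, the gene of mesothelin, at −0.47 and an unadjusted p of 0.044) and 0 passed, with list means of 6.01 to 7.34 in cre fat and 6.14 to 8.66 in wt fat. Of 9 endothelial genes 8 were above 0 (median 0.31) and 0 passed, with list means of 9.13 to 10.85 in cre fat and 8.45 to 10.97 in wt fat. The part of these cells and organs in the members' values was not tested.

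To set the members against the amount of macrophage RNA, genotypes were also compared at equal signal of Adgre1, which encodes the surface antigen by which mouse macrophages are usually identified. Adgre1 itself lay at 10.66 to 13.91 in cre fat (mean 12.52 ± 1.02, SD, n = 10), against 11.41 to 14.29 in wt fat (mean 12.79 ± 0.86, SD, n = 10), a difference of −0.28 (SE 0.38, limma adjusted p = 0.912). At equal Adgre1 the members' differences were smaller in size for Gpnmb (−0.41, SE 0.28), Lgals3 (−0.53, SE 0.37), Cd9 (−0.13, SE 0.29), Plin2 (−0.18, SE 0.14) and Itgax (−0.06, SE 0.19). Without cre replicate 4 these were −0.24 for Gpnmb, −0.25 for Lgals3 and −0.11 for Plin2, and without cre replicates 7 and 9 they were −0.11, −0.23 and −0.05. With the mean of the macrophage identity genes in place of Adgre1, Gpnmb was at −0.18, Lgals3 at −0.31 and Plin2 at −0.11. Mmp12 stood at 0.10 (SE 0.25), Dcstamp at 0.04 (SE 0.26), Fabp5 at 0.00 (SE 0.18) and Acp5 at −0.03 (SE 0.23). Again 0 of 9 members passed adjustment by limma, with adjusted p-values from 0.824 to 0.999, against 0.00901% of all probe sets, and 0 of 9 had an unadjusted p under 0.05, against 6.62% of all. The estimate at equal Adgre1 was below 0 for 6 of 9 members, against 49.7% of all probe sets. The probe sets that passed were those of Tnf (−1.89, SE 0.20) and of Lyz2 (−1.37, SE 0.17), the lysozyme gene that holds the Cre insert. The interval of Itgax, which followed Adgre1 most steeply, narrowed to −0.46 to 0.34 at equal Adgre1. The sign at equal Adgre1 depended on a single mouse for Cd9 (0.15 without wt replicate 6), Itgax (0.04 without wt replicate 8) and Mmp12 (−0.04 without wt replicate 3), and on several for Dcstamp, Acp5 and Fabp5. Without cre replicate 3 and wt replicates 4 and 6, Acp5 was at −0.26, Dcstamp at 0.20 and Mmp12 at 0.18. In batch 1 alone Cd9 was at 0.45 (SE 0.20) and Lgals3 at 0.11 (SE 0.34), and in batch 2 alone they were at −0.55 (SE 0.47) and −0.73 (SE 0.36).

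**Figure D2:**
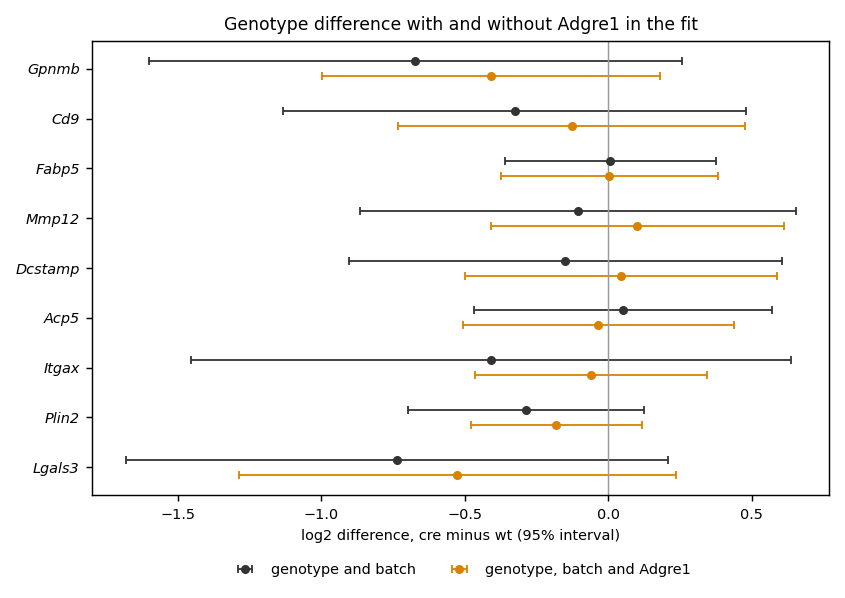
Log2 difference cre minus wt of each member with its 95% interval, from the model with genotype and batch (black) and from the model that also holds Adgre1 (orange), 20 mice. Every interval includes 0, and all but that of Fabp5 are narrower with Adgre1 in the model.

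Within genotype and batch, the members' SD between mice ran from 0.39 (Fabp5) to 1.24 (Itgax) log2 units, and most members varied together. With Adgre1, 7 of the 9 members rose past limma's adjustment, against 6.26% of all probe sets with a positive slope past it (8.82% in either direction, 2.57% with a negative slope). Itgax had the steepest slope, 1.26 log2 units per log2 unit of Adgre1 (SE 0.11, adjusted p = 3e-07), followed by Gpnmb with 0.95 (SE 0.16, adjusted p = 0.00044). Lgals3 had a slope of 0.76 (SE 0.21, adjusted p = 0.024), Mmp12 of 0.75 (SE 0.14, adjusted p = 0.00121), Cd9 of 0.72 (SE 0.17, adjusted p = 0.00736) and Dcstamp of 0.70 (SE 0.15, adjusted p = 0.00382). Plin2 had a shallower slope of 0.38 (SE 0.08, adjusted p = 0.00389), and the reason was not tested. Fabp5 had a slope of −0.01 (SE 0.10, adjusted p = 0.968), and Acp5 one of −0.32 (SE 0.13, adjusted p = 0.145), the reverse in sign of the other members. The median slope was 0.72 over the members and −0.02 over all probe sets. The Lgals3 call is the weakest, and it was lost without cre replicate 3, cre replicate 7, cre replicate 9 or wt replicate 3 (slopes 0.69, 0.70, 0.57 and 0.67, adjusted p 0.055 to 0.16). Without wt replicate 6 the Acp5 slope of −0.40 also passed (adjusted p = 0.00641). With Adipoq beside Adgre1 in the model 5 members had a slope on Adgre1 past adjustment, where 1569 probe sets passed in either direction. The calls of Cd9 (0.48, limma adjusted p = 0.0836) and Lgals3 (0.71, adjusted p = 0.0862) were lost. The Acp5 slope on Adgre1 was −0.03 in that model (adjusted p = 0.896).

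**Figure D3:**
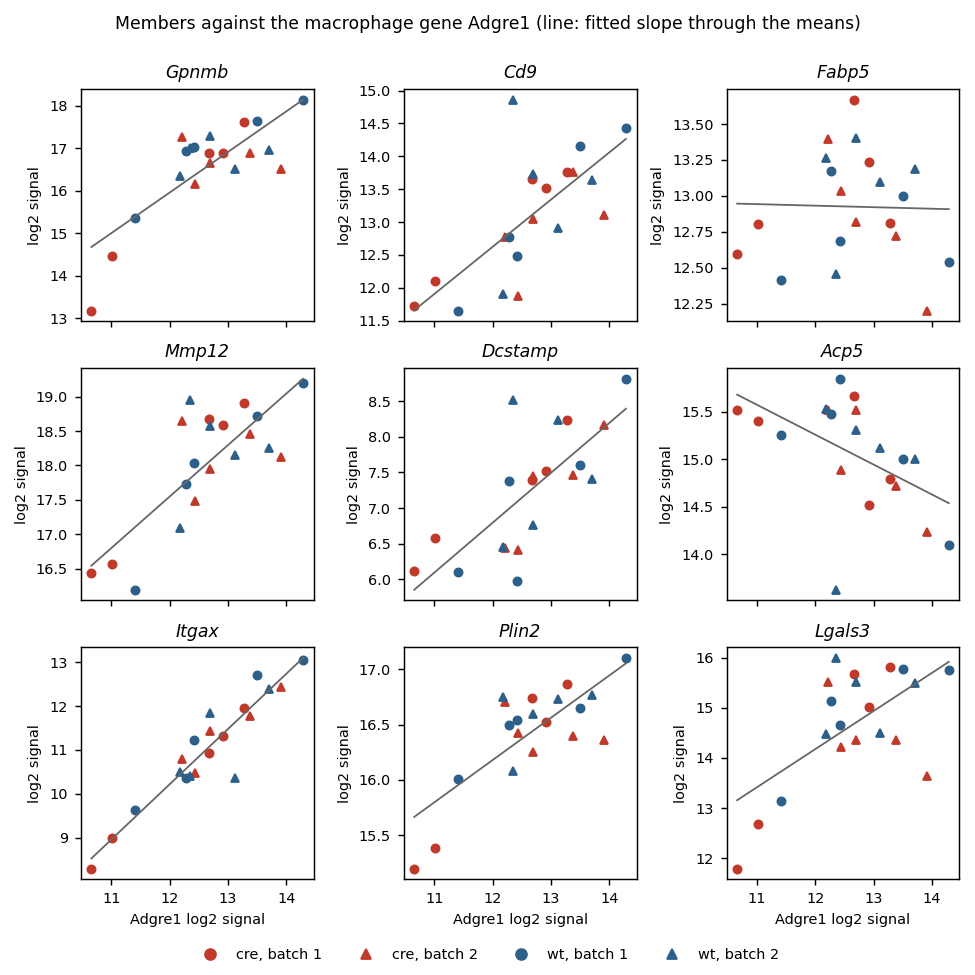
Log2 signal of each member (vertical) against the log2 signal of Adgre1 (horizontal) in 20 mice; red is cre, blue is wt, circles are batch 1 and triangles batch 2, and the line has the slope fitted with genotype and batch. Itgax has the steepest line, Fabp5 is flat, Acp5 slopes down, and for Gpnmb and Lgals3 the mice of batch 2 show no rise.

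The relation rests in part on cre replicates 7 and 9. These mice had the lowest Adgre1 of all mice, 11.01 and 10.66, against 12.22 to 13.91 in the other 8 cre mice. Gpnmb was 14.47 and 13.18 in them, against 16.15 to 17.61 in the other cre mice. Lgals3 was 12.69 and 11.78, against 13.63 to 15.82. For Mmp12, Itgax and Plin2 both mice were likewise below every other cre mouse, while for Cd9, Dcstamp, Fabp5 and Acp5 they were not set apart. Acp5, at 15.40 and 15.52, was above the median of the other cre mice, 14.84. Without these 2 mice, 2 members had a slope past adjustment, Itgax with 1.19 (adjusted p = 0.000197) and Dcstamp with 0.83 (adjusted p = 0.0263), and the count over all probe sets was 684 in place of 1959. The slopes were then 0.77 for Cd9 and 0.63 for Mmp12 (limma adjusted p = 0.0805 for each), 0.53 for Gpnmb (adjusted p = 0.0843), 0.21 for Plin2 and 0.35 for Lgals3. At the other end wt replicate 5 had the highest Adgre1 (14.29) and the highest Gpnmb, Mmp12, Dcstamp, Itgax and Plin2 of the 20 mice, and without it 1026 probe sets passed, with the same 7 members among them. Without cre replicate 9 alone 1268 probe sets passed.

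The slopes differed in size between the batches, and batch 1 held the 3 mice just named. In batch 1 alone the slopes were 1.24 (SE 0.14) for Gpnmb, 1.20 (SE 0.16) for Lgals3, 1.00 (SE 0.10) for Mmp12 and 0.50 (SE 0.09) for Plin2. In batch 2 alone they were −0.01 (SE 0.22), −0.39 (SE 0.30), 0.14 (SE 0.28) and 0.03 (SE 0.16). Itgax and Dcstamp had slopes of similar size in both batches, 1.30 (SE 0.10) and 0.79 (SE 0.13) in batch 1 and 1.03 (SE 0.27) and 0.67 (SE 0.33) in batch 2, and Cd9 had 0.90 (SE 0.09) and 0.42 (SE 0.40). In batch 1 alone 7 members passed limma's adjustment, each with a positive slope, against 5.26% of all probe sets. In batch 2 alone 0 members and 0% of all probe sets passed, and at an unadjusted p under 0.05 there was 1 member, Itgax, with a positive slope, against 5.31% of all. The range of Adgre1 was 10.66 to 14.29 in batch 1 and 12.17 to 13.91 in batch 2. In a test of the difference between batches, added after the data were seen, the slope in batch 2 minus that in batch 1 was −1.26 (SE 0.28) for Gpnmb and −1.56 (SE 0.38) for Lgals3. Neither passed limma's adjustment (adjusted p = 0.574 for each), and 0% of all probe sets did. At an unadjusted p under 0.05 there were 4 of 9 members (Gpnmb, Lgals3, Mmp12 and Plin2), against 5.65% of all probe sets.

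Slopes were also fitted within each genotype. In cre mice alone 5 members passed adjustment (Itgax 1.25, Gpnmb 1.13, Mmp12 0.77, Dcstamp 0.76 and Cd9 0.74), against 3.28% of all probe sets with a positive slope past it. In wt mice alone 1 member did, Itgax with 1.22 (limma adjusted p = 0.0417), against 0.536% of all, although Mmp12 with 0.80, Cd9 with 0.83 and Dcstamp with 0.76 were as steep there. The slope in cre minus the slope in wt passed adjustment for 0 of 9 members and 0% of all probe sets by limma, and 0 of 9 members reached an unadjusted p under 0.05, against 3.96% of all.

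A second set of slopes used Adipoq in place of Adgre1. Acp5 rose with Adipoq, with a slope of 0.97 (SE 0.12, limma adjusted p = 3e-05), against 3.83% of all probe sets with a positive slope past adjustment (6.09% in either direction). The Acp5 slope was 0.97 in batch 1 alone and 0.97 in batch 2 alone, and it ran from 0.94 to 1.02 without a single mouse. It was 1.16 in cre mice alone, where it did not pass (adjusted p = 0.15), and 0.93 in wt mice alone. The mice lowest in Adipoq, wt replicates 6 and 5 at 17.38 and 17.57, were the lowest in Acp5, at 13.62 and 14.09, and without both the slope was 1.07 (adjusted p = 0.0162). Fabp5 had a slope of 0.37 (SE 0.15, adjusted p = 0.177) and Plin2 one of −0.13 (SE 0.19, adjusted p = 0.782). Cd9 and Dcstamp fell with Adipoq, by slopes of −1.19 (SE 0.27, adjusted p = 0.00977) and −1.14 (SE 0.25, adjusted p = 0.00692), against 2.26% of all probe sets with a negative slope past adjustment. Without wt replicates 5 and 6 these were −1.40 and −1.34 and did not pass (adjusted p = 0.168 and 0.137). The Cd9 call was also lost in each batch alone (−1.34 and −1.09), and the Dcstamp call in batch 2 alone (−0.87). Itgax with −0.998 (SE 0.44), Mmp12 with −0.84 (SE 0.30), Gpnmb with −0.79 (SE 0.40) and Lgals3 with −0.77 (SE 0.41) did not pass adjustment. Adgre1 and Adipoq are not independent measures, since both are read in the same whole tissue. The slope of Adgre1 on Adipoq was −0.82 (SE 0.32, limma adjusted p = 0.152).

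**Figure D4:**
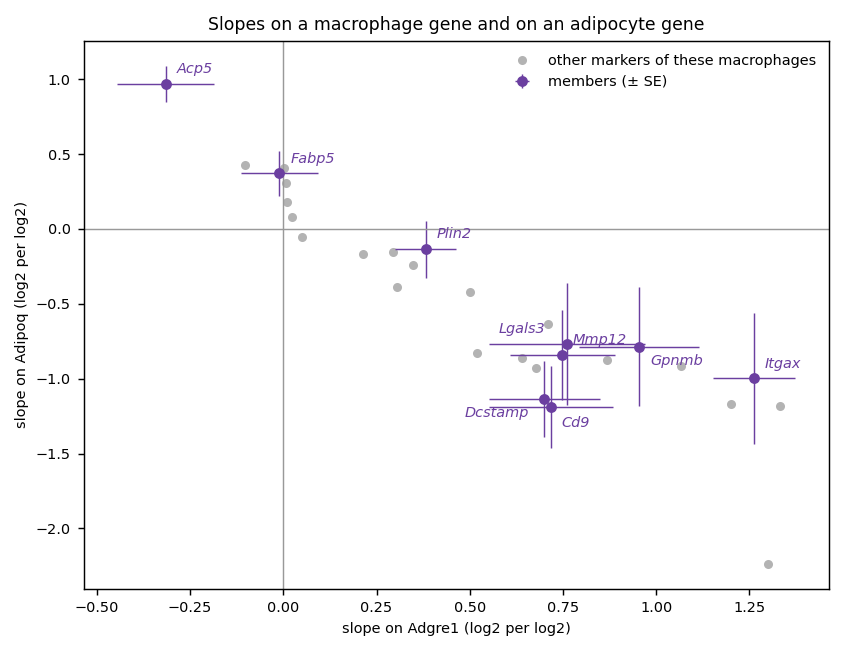
Slope on Adgre1 (horizontal) and slope on Adipoq (vertical), both in log2 per log2 unit, for the 9 members (purple, bars ± SE) and for 20 other markers of these macrophages (grey, no bars), 20 mice. Acp5 lies alone at the upper left, Fabp5 near 0 on the Adgre1 axis, and the other 7 members to the right.

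How closely the members moved together was described by Pearson correlations of each mouse's deviation from the mean of its genotype and batch, over 20 mice that share these arrays and their tissue makeup. The 21 pairs of the 7 members that rose with Adgre1 had r between 0.44 and 0.95, with a median of 0.77, where the 7 had been picked by their slopes in the same mice. Without cre replicates 7 and 9 these pairs had r between 0.16 (Cd9 and Plin2) and 0.93, with a median of 0.64. The closest pair was Gpnmb and Lgals3 (0.95), then Gpnmb and Mmp12 (0.92). Dcstamp stood somewhat apart from Plin2 (0.44, and 0.20 without those mice), and Plin2 and Lgals3 had 0.80, and 0.46 without them. Acp5 was below 0 with all 7, from −0.74 with Dcstamp to −0.11 with Plin2, and without cre replicates 7 and 9 its value with Plin2 was 0.12. The member nearest to Acp5 was Fabp5 (0.55), and the value was 0.70 without those 2 mice. Fabp5 had 0.52 with Plin2 and 0.47 with Lgals3 but −0.25 with Dcstamp, and without the 2 mice 0.38, 0.30 and −0.48.

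The gene outside the list with the most similar pattern was sought for each member among 13150 genes. It was Cd300ld for Gpnmb (r = 0.94) and for Mmp12 (0.93), Lilrb4a for Cd9 (0.96), Lair1 for Itgax (0.96), Ptafr for Plin2 (0.94), Emp3 for Lgals3 (0.91) and Mamld1 for Dcstamp (0.92). Cd300ld, Lilrb4a and Lair1 encode receptors of myeloid and other immune cells, and Ptafr encodes the receptor for platelet-activating factor. For Acp5 it was Mccc1 (0.93), a mitochondrial enzyme of leucine breakdown, and for Fabp5 Slc25a20 (0.88), the carrier that brings acylcarnitines into mitochondria. Without cre replicates 7 and 9 these values were 0.86 for Gpnmb, 0.83 for Plin2 and 0.81 for Lgals3, and at least 0.86 for the others. The genes with the highest mean r over all 9 members were Lipa, Cd300ld, Il7r, Ctsz and Gla, with means of 0.64, and each of them was below 0 with Acp5. Lipa (lysosomal acid lipase), Ctsz (a cathepsin) and Gla (alpha-galactosidase) are enzymes of the lysosome.

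Of 22 further markers of these macrophages 20 were measured (Spp1 and Ctsd were not matched). The estimate of cre minus wt was below 0 for 17 of them and above 0 for 3, with a median of −0.23, and 0 passed adjustment by limma. The lipid receptor gene Trem2 had the smallest p of the list (difference −0.78, unadjusted p = 0.0454, limma adjusted p = 0.788) and was the 1 gene under an unadjusted 0.05. At equal Adgre1 Trem2 was at −0.59. With Adgre1, 11 of the 20 rose past adjustment, against 6.26% of all probe sets, and 0 fell, and the median slope was 0.43. They include Nceh1 (1.33), a cholesterol ester hydrolase, Slc37a2 (1.20), a sugar phosphate transporter, Atp6v0d2 (1.07), a subunit of the proton pump of lysosomes and osteoclasts, Msr1 (0.87), a scavenger receptor, Lipa (0.71) and Trem2 (0.68). Like Fabp5, the lipid genes Cd36 (0.01), Lpl (0.00), Apoe (0.02) and Npc2 (0.01) and the protease gene Ctsl (0.05) had slopes near 0, and none of these passed. Cd36 and Lpl are known to be abundant in adipocytes, and whether this bears on their slopes was not tested.

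Relatives of the members did not all behave alike. Their counts stand against 6.26% of all probe sets that rose with Adgre1 past adjustment and 2.57% that fell. Of 5 perilipins 1, Plin2, rose with Adgre1, while Plin1 and Plin4, the droplet coats of adipocytes, rose with Adipoq, with slopes of 1.28 (SE 0.16, limma adjusted p = 3e-05) and 1.63 (SE 0.16, adjusted p = 3.51e-06). Of 9 fatty acid binding proteins 0 rose or fell with Adgre1 past adjustment, and Fabp4, the main form of adipocytes, rose with Adipoq with a slope of 0.31 (SE 0.09, adjusted p = 0.0298), close in size to the 0.37 of Fabp5. Of 9 galectins 1, Lgals3, rose with Adgre1. Of 7 tetraspanins 3 did: Cd9 and the leukocyte forms Cd37 (0.83) and Cd53 (0.84). Of 5 beta-2 integrin genes 4 rose with Adgre1: Itgax (1.26), Itgb2 (0.76), Itgad (0.68) and Itgam (0.57), and Itgal with 0.47 did not pass. Of 11 metalloproteases and inhibitors 6 rose with it: Mmp12, Mmp3 (1.07), Mmp2 (0.94), Mmp14 (0.62), Timp2 (0.46) and Mmp13 (0.39). Timp1, the general inhibitor of these proteases, was the 1 gene of that list with an unadjusted p under 0.05 between genotypes (difference −1.29, SE 0.54, limma adjusted p = 0.772). Under an unadjusted 0.05 were also Cd37 (−0.84), Fabp7 (−0.69) and the galectin genes Lgals7 (−0.47), Lgals9 (−0.52) and Lgals3bp (−0.68), with adjusted p-values from 0.77 to 0.789.

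Of 15 MITF-TFE factors and osteoclast-type genes 0 passed adjustment between genotypes and 0 had an unadjusted p under 0.05. With Adgre1 5 of them rose: Atp6v0d2, Ctsk (0.93), the collagen-degrading cathepsin of osteoclasts, Tnfrsf11a (0.79), the receptor RANK, and the factors Mitf (0.60) and Tfe3 (0.50). The factors Tfeb, Tfec and Nfatc1 did not pass, and the median slope of the list was 0.08. Among all probe sets 6.26% rose with Adgre1 past adjustment. Ocstamp (0.01), the fusion partner of Dcstamp, and the osteoclast genes Itgb3 (0.07), Oscar (0.05) and Calcr (0.08) had slopes near 0. Of 4 measured genes of bone-forming cells (Bglap, Sp7, Ibsp and Dmp1) 0 rose or fell with Adgre1, and their mean signal was 4.16 to 4.89 in cre fat and 4.18 to 4.66 in wt fat, below the array medians.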

How the data were processed

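Per the labels, a lipid tissue kit gave the RNA of each epididymal pad, the GeneChip WT PLUS kit labelled it with biotin, and each mouse had 1 array. The values deposited by the authors are log2 signals, 1 per probe set and array. The submitters' processing notes name Transcriptome Analysis Console 4.0.2.15, RMA and mm10, while filters and batch adjustment are not given in the sources used here. RMA makes arrays alike, which removes a shift common to most genes, and weak signals hold background that compresses differences. No depth exists for arrays.

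Group, batch and replicate number came from the sample titles. Symbols came from the platform annotation: 19572 probe sets had 1, 0 had several and 2634 had none, and the probe set with the highest mean stood for a gene. Coordinates are those of the RefSeq gene table of mm10. Models were fitted with limma 3.58.1 in R 4.3.3 (genotype and batch as terms, eBayes without trend) over all probe sets, with Benjamini-Hochberg adjustment over all of them and a threshold of 0.05. A second model added Adgre1, centred, and gave the difference at equal Adgre1 and the slope on Adgre1 within genotype and batch. Another model used Adipoq. Product terms tested whether effects differed between batches or genotypes. The fit was tested on simulated data. Tables and figures were made with Python 3.11.15, pandas 2.3.3, NumPy 2.4.6, SciPy 1.17.1 and matplotlib 3.10.9.

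The text names the 9 members, Tnf, Lyz2, Adgre1 and Adipoq, for each member the gene outside the list with the highest Pearson r, and the 5 genes with the highest mean r. It also names genes of the lists with an unadjusted limma p under 0.05 between genotypes. The monocyte and neutrophil list and the epididymis and testis list held 1 such gene each, whose difference is not given. Genes of lists named for their slopes were chosen after their values were seen. Members and lists were chosen with earlier results of these data known. The titles call the mice biological replicates. Alternatives were another prior, a filter on low signals, renormalization, array weights, fits without batch, fits within a batch, a block for the replicate number, other covariates and leaving out mice. Mice were called set apart where Dixon's ratio over the 10 mice of a genotype passed 0.466 for the mean of a list of liver, pancreas, seminal vesicle or epididymis and testis genes.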

Additional observations from a re-analysis of the deposited data

How the results depend on the processing

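No member passed limma's adjustment between genotypes, with or without Adgre1, under any alternative run. The sign of small, uncalled values often changed, and so did that of the Gpnmb and Lgals3 slopes on Adgre1 in batch 2 alone. These slopes had passed adjustment over all mice. The cause of the changes was not tested. With array weights the difference was −0.38 for Gpnmb, −0.48 for Lgals3, −0.17 for Itgax, −0.042 for Cd9, −0.056 for Fabp5, 0.14 for Mmp12, 0.068 for Dcstamp and −0.11 for Acp5, and at equal Adgre1 0.059 for Cd9 and −0.071 for Fabp5. In batch 1 alone it was 0.45 for Cd9 and 0.11 for Lgals3 at equal Adgre1, and the Fabp5 slope on Adgre1 was 0.12. In batch 2 alone the difference was −0.25 for Fabp5 and 0.28 for Itgax. At equal Adgre1 it was −0.22 for Fabp5, −0.088 for Mmp12, −0.37 for Dcstamp, 0.095 for Acp5 and 0.16 for Itgax there, and the slopes on Adgre1 were −0.012 for Gpnmb and −0.39 for Lgals3. Without cre replicates 7 and 9 the difference was 0.28 for Mmp12, 0.065 for Dcstamp, −0.027 for Acp5 and 0.16 for Itgax, and at equal Adgre1 −0.054 for Dcstamp and 0.031 for Acp5. Without wt replicates 5 and 6 it was 0.021 for Cd9, −0.099 for Fabp5, 0.14 for Mmp12, 0.19 for Dcstamp and −0.24 for Acp5, at equal Adgre1 0.14 for Cd9 and −0.096 for Fabp5, and the Fabp5 slope was 0.018. Without cre replicate 3 and wt replicates 4 and 6, the mice set apart by genes of other tissues and left out after the data were seen, it was −0.010 for Fabp5, and at equal Adgre1 0.073 for Cd9 and −0.020 for Fabp5. With the macrophage list mean in place of Adgre1 Cd9 was at 0.066 and Itgax at 0.21, with a Fabp5 slope of 0.018. With Adgre1 and Adipoq together Cd9 was at 0.12 and Fabp5 at −0.15, with a Fabp5 slope of 0.13, and in wt mice alone the Fabp5 slope was 0.057. Without a single mouse, the differences ran from −0.084 to 0.096 (Fabp5), −0.31 to 0.061 (Mmp12), −0.30 to 0.035 (Dcstamp) and −0.10 to 0.14 (Acp5). At equal Adgre1 they ran from −0.25 to 0.15 (Cd9), −0.095 to 0.12 (Fabp5), −0.041 to 0.27 (Mmp12), −0.095 to 0.26 (Dcstamp), −0.24 to 0.046 (Acp5) and −0.20 to 0.039 (Itgax), and the Fabp5 slope from −0.062 to 0.067.

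Counts of probe sets moved with the mice used. Between genotypes 0 were called in batch 1 alone and 0 in batch 2 alone, with or without Adgre1, 2 without the mice set apart by genes of other tissues, and 1 to 2 without a single mouse. For the slope on Adgre1, 1959 were called in the model as reported, 684 without cre replicates 7 and 9, 0 in batch 2 alone, 123 in wt mice alone and 1006 in cre mice alone, and 1026 to 2703 without a single mouse. With Adgre1 and Adipoq together 1569 were called, with array weights 2645, and without the mice set apart by genes of other tissues 2061. Members called were 7 as reported, 5 with Adgre1 and Adipoq together (Cd9 and Lgals3 lost), 8 with array weights and 8 without the mice set apart by genes of other tissues (Acp5 added, with slopes of −0.38 and −0.40), 2 without cre replicates 7 and 9, 0 in batch 2 alone, 1 in wt mice alone and 6 to 8 without a single mouse. For the slope on Adipoq, 1352 were called as reported, 2282 with array weights, 636 in batch 1 alone, 10 in cre mice alone, 880 in wt mice alone, 810 without wt replicates 5 and 6 and 1091 to 1993 without a single mouse. The titles do not say whether replicate numbers pair the mice, and same-numbered cre and wt mice shared a batch. Deviations of same-numbered mice correlated at −0.30 to 0.34, with 4 of 10 pairs above 0.1. Such correlations cannot decide whether the mice were paired. With the replicate number as a block in place of batch, 0 probe sets were called between genotypes, 736 for the slope on Adgre1 (4 members) and 485 for the slope on Adipoq, and Fabp5 at equal Adgre1 was at −0.0091. Averaging all probe sets of a gene changes nothing, since each member has 1.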

Other observations

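Markers of resident macrophages of fat, another macrophage population of the pad, were read beside the members. Of 12 measured, 0 differed between genotypes past limma's adjustment or at an unadjusted p under 0.05, and 5 rose with Adgre1: Folr2, a folate receptor (1.06), Vsig4, a complement receptor (0.87), Pf4, a chemokine (0.80), Mrc1, the mannose receptor (0.51), and Selenop, a selenium carrier (0.30). Lyve1 (−0.18), Timd4 (0.04), Cd163 (0.11), F13a1 (−0.01) and Cbr2 (−0.05) had slopes that did not pass. Of 11 monocyte and neutrophil genes 1, Csf3r (0.45), rose with Adgre1, and of 12 dendritic cell genes 1, Irf8 (0.55). For all of these lists the share over all probe sets was 6.26%. Flt3, the growth factor receptor of dendritic cells, had a difference of 0.59 between genotypes (SE 0.20, limma adjusted p = 0.77) and a slope of 0.02.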
